A study of Arabidopsis thaliana with 12 samples.

Results

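This report describes 24 Arabidopsis thaliana genes whose array signal was higher in light than in darkness in each of 4 sample pairs while the herbicide bromoxynil was present. They were taken from 3439 array probes. The platform annotation gives exactly 1 gene for 692 probes. Of these, 633 were above 0 in all 12 samples and 59 were listed at 0 in at least 1. After the top 20% by mean level in the dark were set aside, 506 probes remained eligible, and the word eligible is used for these below. A gene was taken when light minus dark was at least 0.15 on the log2 scale in each of sample numbers 3, 4, 5 and 6. That was so for 30 eligible probes, and 6 of them, which were set aside by probe number when the set was defined, are not described here.

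All 12 samples were total RNA of wild-type plants of the Landsberg ecotype that had received bromoxynil at 500 µM. The light group (n = 6) was collected 30 min after light was given back to plants that had spent 12 h in darkness, and the dark group (n = 6) after 12 h in darkness. Both groups therefore carried the herbicide, and plants without it were not analysed here. Titles number the samples of each group 1 to 6. No label tells whether a number stands for a separate plant or culture, so a p-value below reflects the spread among these samples alone, and that spread may be technical.

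Bromoxynil is a nitrile herbicide that blocks electron flow at photosystem II, so that illuminated chloroplasts absorb light they cannot pass on through the electron transport chain. In plants without a herbicide, the return of light after a night changes many nuclear transcripts within minutes, through photoreceptors, the clock and signals from the chloroplast. Whether the 24 genes share a pathway was not examined, and many are given below with no role. They include enzymes of histidine, lipid and acyl-ester metabolism, a metal transporter of the cation efflux family, a kinesin motor, RING-type proteins and loci that the gene table lists without a descriptive name. Of the 24, 3 carry a name of their own in the RefSeq gene table (AT-HF, LpxA and MAMI), and 21 are listed by locus. Roles given below are background knowledge and were not measured here.

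Intensities were deposited on a relative linear scale. The median of a sample was 3.88 and 3.90 in light 1 and 2, between 0.559 and 0.583 in light 3 to 6, and between 0.624 and 0.654 in the 6 dark samples. Light 1 and 2 thus stood apart before scaling. Their changes were also larger after scaling: the SD of light minus dark across the 3193 probes above 0 in all samples was 0.866 for numbers 1 and 2, against 0.313 for 3 and 4 and 0.358 for 5 and 6. Each set of samples was quantile normalised by itself, numbers 3 to 6 as one set and numbers 1 and 2 as another, so levels are set side by side only within a set. Of the single-gene probes, 8 matched the words for green tissue. PSBW, LHB1B2 and PSAN, which encode parts of the photosystems and their antenna, lay at the 99.7, 99.1 and 98.3 percentiles of the 633 dark levels, and the other 5 between the 21.2 (PRK) and the 70.8 (PSBY) percentile. No gene of the other-tissue words was found, so these probes do not show whether non-green tissue was present.

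In numbers 3 to 6 the 24 genes were chosen for being higher in light, and the sizes below describe that choice. Over all eligible probes 5.93% met the size rule, and 6.42% of the 3193 tested probes did. The mean of the 4 differences ran from 0.24 to 1.52, with a median of 0.49 over the 24 genes and -0.03 over all eligible probes. It was 1 or more for 2 genes, 0.4 to 0.8 for 11 and under 0.4 for 11. These 2, AT-HF and AT3G47980, were the dimmest of the 24, and their means of 1.52 and 1.37 were 0.79 and 0.86 with median centring and 0.35 and 0.17 with the pseudocount. Without number 3 the mean of AT-HF was 0.84, and without number 4 that of AT3G47980 was 0.86. Every light sample lay above every dark sample for 11 of the 24 genes. That was so for 4.74% of eligible and 6.04% of all tested probes, and the rule used this contrast. For the other 13, the groups overlapped although each number on its own was higher in light.

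**Figure D1:**
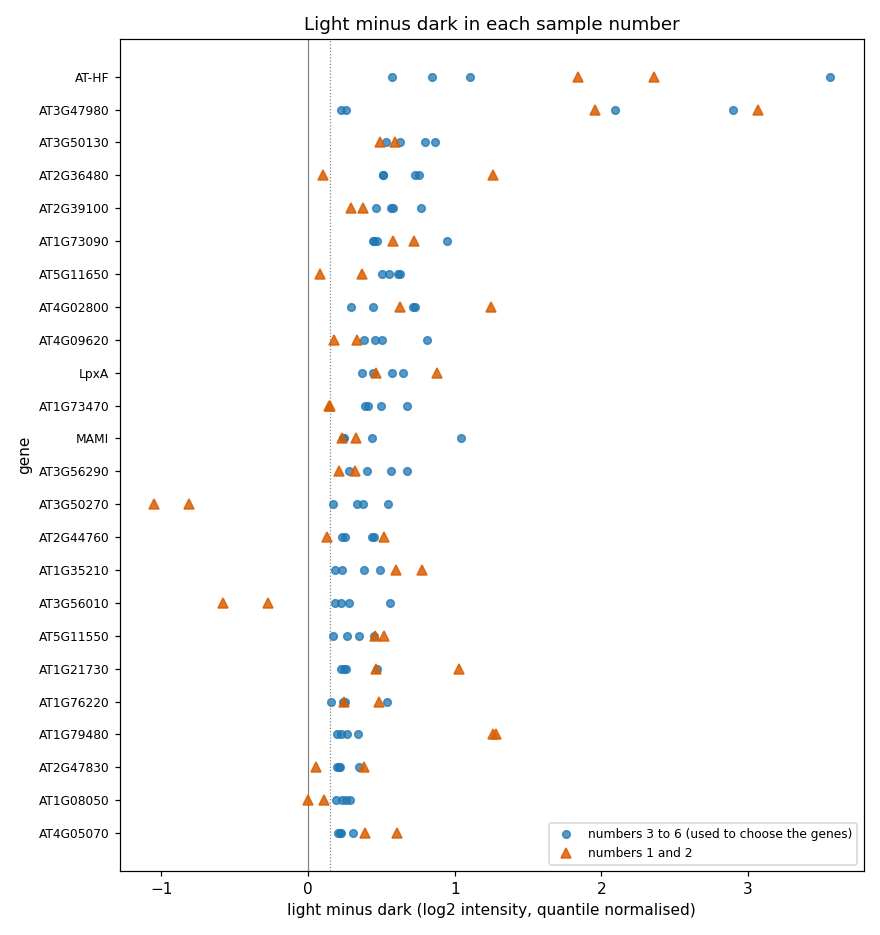
Light minus dark on the log2 scale (x axis) for each of the 24 genes (y axis, ordered by the mean of numbers 3 to 6), with 1 point for each sample number. Circles are numbers 3 to 6, which chose the genes, and triangles are numbers 1 and 2. The dotted line is the threshold of 0.15, and AT3G50270 and AT3G56010 have both triangles below 0.

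Sample numbers 1 and 2 took no part in the size rule and give the only test here. In these samples 21 of the 24 genes (87.5%) were higher in light in both numbers, against 48.6% of eligible probes and 48.4% of all tested probes. At least 0.15 was reached in both numbers by 16 of the 24 (66.7%), against 34.6% of eligible and 35.7% of all tested probes. Both light samples lay above both dark samples for 17 of the 24, against 40.7% of eligible and 40.3% of all tested probes. Only 2 of the 24 were lower in light in both numbers, against 31% of eligible and 35.1% of all tested probes. The median light minus dark was 0.43 for the 24 genes, 0.13 for all eligible probes and 0.11 for all tested probes. The mean level in the dark, which set the top 20% aside, included dark 1 and 2. The filter for values above 0 used all 12 samples, so the choice of genes was not fully free of numbers 1 and 2. The light group here was light 1 and 2 alone, with deposited medians of 3.88 and 3.90. Their maxima were 48.2 and 47.6, against 100 in each other sample. Light and this other signal scale cannot be told apart in numbers 1 and 2. In whole plants, a change in the cells that carry a transcript and a change in its amount per cell cannot be told apart.

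Gene by gene, limma on these 4 samples called 6 of the 24 at a Benjamini-Hochberg adjusted p under 0.05 over all 3193 probes. Of the 6, 5 (20.8% of the 24) were higher in light, namely AT-HF, AT3G47980, AT1G79480, AT4G02800 and LpxA, and 1 was lower (AT3G50270). Samples 1 and 2 of a group were most alike to each other, so these p-values may be too small. The share of eligible probes called higher was 9.88%, and 10.7% were called lower. Over all tested probes these shares were 11.7% and 13.5%. An unadjusted p under 0.05 was found for 12 of the 24, 10 higher and 2 lower. For all tested probes that share was 24% higher and 18.6% lower, and for eligible probes 22.7% and 16%. With the sample number as a block 6 of the 24 were called as well, 5 higher and 1 lower. Over all tested probes the shares called higher and lower were 9.55% and 12.7% there. AT4G02800 and LpxA no longer passed with the block (limma adjusted p 0.0671 and 0.0710), while AT1G73090 and AT1G35210 did (0.0430 and 0.0424). Without light 1 or without light 2, the median light minus dark of the 24 genes was 0.35 and 0.43. Without dark 1 or without dark 2, it was 0.37 and 0.34. Medians of the eligible probes with 1 sample left out are not given here.

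**Figure D2:**
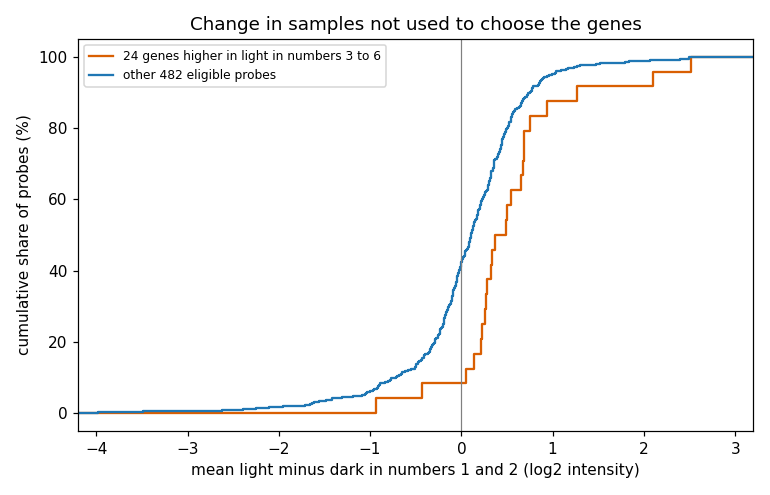
Cumulative share of probes (y axis, percent) against the mean light minus dark in numbers 1 and 2 on the log2 scale (x axis), for the 24 genes and for the other 482 eligible probes. The median was 0.43 for the 24 genes and 0.11 for the other 482.

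Among the enzymes, AT-HF had the largest mean difference in numbers 3 to 6. AT-HF (AT4G26900, also HISN4) is the bifunctional imidazole glycerol phosphate synthase of histidine synthesis in the plastid. Its log2 intensity was -4.92, -1.95, -1.77 and -1.77 in light 3 to 6, against -8.48, -2.52, -2.61 and -2.87 in dark 3 to 6. Number 3 was low in both groups, and its difference of 3.56 stood above those of 0.57, 0.85 and 1.10 in numbers 4, 5 and 6. The deposited intensities in number 3 were 0.0275 in light and 0.0181 in the dark, a log2 difference of 0.60 before scaling. The scaled value of number 3 is thus far larger than the deposited one. AT-HF had 0.74 and 0.48 in light 1 and 2, against -1.61 and -1.37 in dark 1 and 2. Both light samples lay above both dark samples, and AT-HF rose 4.28-fold there (2.10 ± 0.16, SE, limma adjusted p 0.00770, 95% CI 1.64 to 2.56).

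LpxA (AT4G29540) encodes a UDP-N-acetylglucosamine acyltransferase, an enzyme known from Escherichia coli for the first step of lipid A synthesis. Its log2 intensity was -0.24, -0.06, 0.35 and 0.50 in light 3 to 6, against -0.68, -0.64, -0.02 and -0.15 in dark 3 to 6. Numbers 5 and 6 were higher than numbers 3 and 4 in both groups, so that the groups overlapped, and the mean difference was 0.51 ± 0.13 (SD, n = 4). It had 0.94 and 1.14 in light 1 and 2, against 0.48 and 0.26 in dark 1 and 2, with no overlap. LpxA rose 1.59-fold there (0.67 ± 0.14, SE, limma adjusted p 0.0463), a call that ended with the sample number as a block as given above.

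AT5G11650 belongs to the alpha/beta-hydrolase family, many of whose members are lipases or esterases. It had 0.43, 0.36, 0.47 and 0.28 in light 3 to 6, against -0.07, -0.19, -0.16 and -0.34 in dark 3 to 6. The groups were well apart, and the difference of 0.57 ± 0.06 (SD, n = 4) varied little between the numbers. It had 2.02 and 0.60 in light 1 and 2, against 1.65 and 0.52 in dark 1 and 2. Number 1 was far above number 2 in both groups, the differences were 0.37 and 0.08, and limma did not call them (adjusted p 0.822, 95% CI of the mean -1.76 to 2.21). The sign of the mean turned without light 1 (-0.48) and without dark 2 (-0.35).

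AT3G50270, of the HXXXD-type acyltransferase family, went the opposite way in the 2 sets of samples. It had 0.36, 0.35, 0.28 and 0.46 in light 3 to 6, against 0.03, 0.18, -0.09 and -0.08 in dark 3 to 6, so all 4 light samples were above all 4 dark samples. It had 0.47 and 0.69 in light 1 and 2, against 1.52 and 1.51 in dark 1 and 2. Both light samples were below both dark samples, and AT3G50270 fell there (-0.93 ± 0.12, SE, limma adjusted p 0.0188). Before scaling the mean in numbers 1 and 2 was 1.69, below the median of 2.67 over the eligible probes. The direction is thus relative to the other probes of the same samples. Whether the change differs between the 2 sets was not tested.

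**Figure D3:**
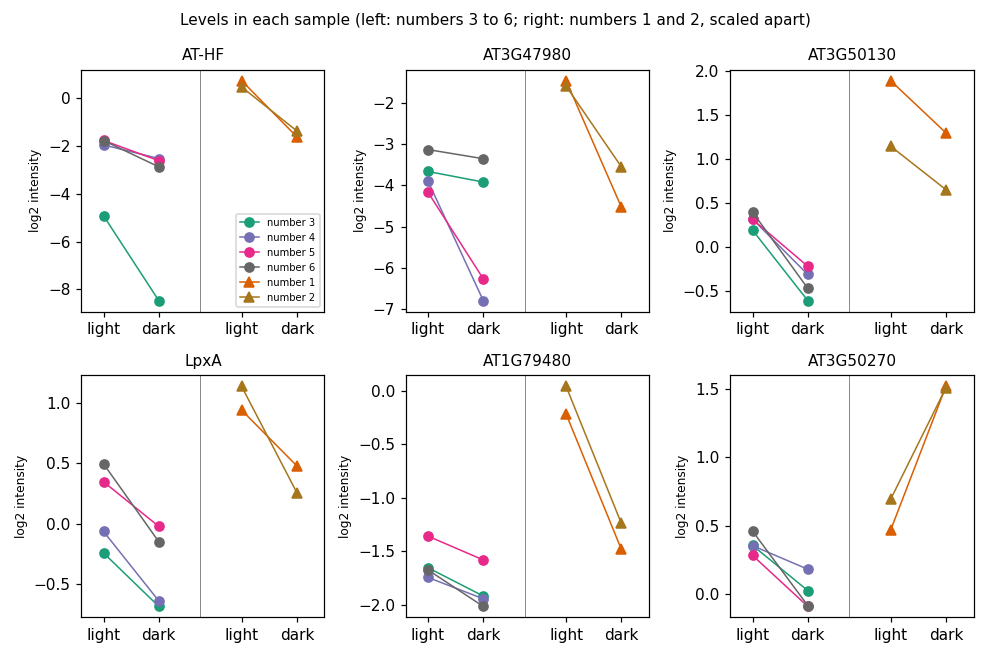
Quantile normalised log2 intensity (y axis) in light and in the dark for 6 of the genes, with a line joining the light and dark sample of each number. The left side of each panel holds numbers 3 to 6 and the right side numbers 1 and 2, which were scaled apart. AT-HF is low in both samples of number 3, and AT3G50270 is higher in light on the left side and lower in light on the right side of its panel.

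Among genes of transport, membranes and the cytoskeleton, AT2G47830, MAMI and AT1G21730 were all higher in light in both of numbers 1 and 2, but none of them was called. AT2G47830, of the cation efflux family of metal transporters, had -0.23, -0.11, -0.09 and 0.01 in light 3 to 6, against -0.43, -0.33, -0.30 and -0.34 in dark 3 to 6. The groups did not overlap, and the mean difference was 0.24 ± 0.07 (SD, n = 4). It had 1.17 and 1.17 in light 1 and 2, against 0.79 and 1.12 in dark 1 and 2, and its differences were 0.38 and 0.05 (limma adjusted p 0.340). MAMI (AT5G54110), a membrane-associated protein first described as mannitol-induced, had differences of 0.44, 0.25, 1.04 and 0.24 in numbers 3 to 6. Number 5 stood above the rest. MAMI had differences of 0.23 and 0.33 in numbers 1 and 2 (limma adjusted p 0.189).

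AT1G21730, a kinesin, is a motor protein of the family that moves along microtubules. It had -1.33, -1.47, -1.10 and -0.90 in light 3 to 6, against -1.56, -1.72, -1.57 and -1.14 in dark 3 to 6. The groups overlapped, and the mean difference was 0.30 ± 0.12 (SD, n = 4). It had -0.91 and 0.14 in light 1 and 2, against -1.94 and -0.33 in dark 1 and 2. Number 2 was the higher one in both groups, and the mean of 0.75 had a 95% CI of -1.34 to 2.83 (limma adjusted p 0.484). Without dark 1 the mean was -0.052.

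AT2G39100 and AT1G08050 encode proteins with RING-type zinc fingers, a domain common in ubiquitin ligases. AT2G39100 had 0.24, 0.41, 0.39 and 0.37 in light 3 to 6, against -0.33, -0.05, -0.19 and -0.40 in dark 3 to 6. It was higher in every light sample, by 0.60 ± 0.13 (SD, n = 4). It had 1.92 and 1.84 in light 1 and 2, against 1.55 and 1.55 in dark 1 and 2. The light samples were again above, but the mean of 0.33 was not called (limma adjusted p 0.0784, 95% CI 0.07 to 0.60).

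AT1G08050 had -0.34, -0.25, -0.26 and 0.02 in light 3 to 6, against -0.57, -0.53, -0.45 and -0.24 in dark 3 to 6. Number 6 was the highest in both groups, and the difference of 0.24 ± 0.04 (SD, n = 4) had the smallest SD of the 24 genes. It had 1.09 and 1.05 in light 1 and 2, against 0.99 and 1.06 in dark 1 and 2. The light and dark values overlapped, and the mean difference was 0.05 (limma adjusted p 0.694, 95% CI -0.21 to 0.31).

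AT1G79480 and AT3G50130 come from families that are known mainly by a domain. AT1G79480 has an X8 domain, which binds carbohydrate in several cell wall proteins. It had -1.65, -1.74, -1.36 and -1.67 in light 3 to 6, against -1.92, -1.94, -1.58 and -2.01 in dark 3 to 6. The difference there was 0.26 ± 0.06 (SD, n = 4) and was among the smaller ones. It had -0.22 and 0.04 in light 1 and 2, against -1.48 and -1.24 in dark 1 and 2. AT1G79480 rose 2.41-fold in that set (1.27 ± 0.16, SE, limma adjusted p 0.0180, and 0.0196 with the sample number as a block).

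AT3G50130 carries the plant-specific DUF247 domain. It had 0.19, 0.32, 0.32 and 0.40 in light 3 to 6, against -0.60, -0.31, -0.22 and -0.47 in dark 3 to 6. The groups were apart by more than the spread within either, and the mean difference was 0.70 ± 0.15 (SD, n = 4). It had 1.89 and 1.14 in light 1 and 2, against 1.30 and 0.65 in dark 1 and 2. Number 1 was higher than number 2 in both groups, so the groups overlapped although the differences of 0.59 and 0.49 were alike. The limma adjusted p was 0.343, and 0.0520 with the sample number as a block.

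AT5G11550, of the ARM repeat superfamily, was near the threshold of the rule. It had -0.05, -0.08, -0.21 and -0.31 in light 3 to 6, against -0.49, -0.42, -0.48 and -0.47 in dark 3 to 6, with no overlap. The smallest of its differences was 0.17. It had 1.44 and 1.27 in light 1 and 2, against 0.92 and 0.81 in dark 1 and 2. The mean of 0.49 just missed the threshold (limma adjusted p 0.0578, 95% CI 0.16 to 0.81). It passed with median centring (adjusted p 0.0463), with the dimmest 25% left out (0.0410) and with the pseudocount (0.0492). It also passed with trend and robust (0.0294) and without scaling. It did not with quantile normalisation of all 12 samples (0.0567) or with the sample number as a block (0.0575).

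The other 12 genes are given by locus with no role. AT3G47980 was the dimmest of the 24, at the 0.158 percentile of dark levels. It had -3.67, -3.90, -4.17 and -3.14 in light 3 to 6, against -3.92, -6.80, -6.27 and -3.36 in dark 3 to 6. Dark 4 and dark 5 were far below the other samples, and the differences in numbers 3 and 6 were only 0.26 and 0.22. Its deposited intensities in these numbers were lower in light, at 0.0700 and 0.0971, against 0.0821 and 0.103 in the dark. AT3G47980 was the only 1 of the 24 genes whose deposited light value did not exceed the dark value in each of numbers 3 to 6, and 23 did. AT3G47980 had -1.47 and -1.60 in light 1 and 2, against -4.53 and -3.55 in dark 1 and 2, and it rose 5.70-fold (2.51 ± 0.38, SE, limma adjusted p 0.0252). Median centring ended this call (adjusted p 0.0557, log2 change 1.42). With the pseudocount the gene was still called, but the log2 change was only 1.06 (limma adjusted p 0.0105).

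AT4G02800 had -1.98, -2.32, -1.46 and -1.94 in light 3 to 6, against -2.69, -2.76, -2.19 and -2.23 in dark 3 to 6, and the groups overlapped. It had 0.19 and 0.54 in light 1 and 2, against -0.43 and -0.71 in dark 1 and 2. Both light samples were above both dark samples there, and AT4G02800 rose 1.91-fold (0.94 ± 0.18, SE, limma adjusted p 0.0420), a call that ended with the sample number as a block.

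AT2G36480 had -1.80, -1.23, -1.03 and -1.42 in light 3 to 6, against -2.30, -1.74, -1.76 and -2.18 in dark 3 to 6. AT2G36480 differed by 0.63 ± 0.14 (SD, n = 4) in these samples. It had -0.81 and -0.86 in light 1 and 2, against -0.91 and -2.12 in dark 1 and 2. Dark 2 alone was low, the differences were 0.10 and 1.26, and limma did not call them (adjusted p 0.330), except without dark 1 (adjusted p 0.0355) and without scaling.

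AT1G73090 had -2.87, -3.03, -2.52 and -2.70 in light 3 to 6, against -3.31, -3.97, -2.99 and -3.15 in dark 3 to 6. Dark 4 was the lowest sample and gave number 4 the largest difference, 0.95. AT1G73090 had -0.39 and -1.15 in light 1 and 2, against -0.97 and -1.87 in dark 1 and 2. Number 1 was higher in both groups, and the mean difference of 0.65 passed only with the sample number as a block or without scaling.

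AT3G56010 had 0.38, 0.18, -0.05 and -0.06 in light 3 to 6, against 0.16, -0.01, -0.61 and -0.34 in dark 3 to 6, with overlap. It had 1.21 and 1.09 in light 1 and 2, against 1.49 and 1.67 in dark 1 and 2. Both differences were negative there, with a mean of -0.43 (limma adjusted p 0.0793, 95% CI -0.77 to -0.09). AT3G56010 and AT3G50270 were the 2 genes lower in light in both numbers.

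AT4G09620, the brightest of the 24 at the 78.7 percentile, had 0.38, 0.46, 0.67 and 0.57 in light 3 to 6, against -0.12, -0.35, 0.21 and 0.19 in dark 3 to 6. It had 1.92 and 1.87 in light 1 and 2, against 1.59 and 1.69 in dark 1 and 2. Its light samples were above its dark samples in both sets, and the mean in numbers 1 and 2 was 0.25 (limma adjusted p 0.136).

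AT1G73470 had -0.77, -0.46, -0.62 and -0.48 in light 3 to 6, against -1.18, -1.14, -1.01 and -0.97 in dark 3 to 6, a mean difference of 0.49 ± 0.13 (SD, n = 4). It had 0.92 and 0.80 in light 1 and 2, against 0.78 and 0.65 in dark 1 and 2. The light samples were above the dark samples in both sets, but the mean in numbers 1 and 2 was 0.14 with a 95% CI of -0.17 to 0.46 (limma adjusted p 0.384).

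AT1G76220 was the gene nearest above the threshold, with a smallest difference of 0.16. It had 0.06, 0.12, -0.54 and -0.69 in light 3 to 6, against -0.19, -0.41, -0.77 and -0.85 in dark 3 to 6. Numbers 5 and 6 were lower than numbers 3 and 4 in both groups, and the groups overlapped. AT1G76220 had 1.56 and 1.76 in light 1 and 2, against 1.32 and 1.27 in dark 1 and 2 (limma adjusted p 0.0972). Just outside the threshold were AT1G30700, AT1G34270 and AT3G51930, with smallest differences of 0.148, 0.143 and 0.140.

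The remaining loci, AT3G56290, AT2G44760, AT1G35210 and AT4G05070, had mean differences of 0.48, 0.34, 0.32 and 0.24 in numbers 3 to 6. AT2G44760 and AT1G35210 had every light sample above every dark sample there. AT4G05070 overlapped because numbers 5 and 6 were higher in both groups, with -0.02 and 0.07 in light, against -0.24 and -0.13 in the dark, but its difference varied only between 0.21 and 0.30. All 4 loci were higher in light in both of numbers 1 and 2. Their means there were 0.27 for AT3G56290, 0.32 for AT2G44760, 0.69 for AT1G35210 and 0.50 for AT4G05070. The main limma fit called none of them (adjusted p 0.119, 0.160, 0.0573 and 0.0841). AT1G35210 passed with the sample number as a block (limma adjusted p 0.0424), with the pseudocount (0.0469) and with trend and robust (0.0346). It did not with median centring (0.0501), quantile normalisation of all 12 samples (0.0523) or the dimmest 25% left out (0.0535).

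The 24 genes varied in level as well as in size of change. Their dark levels ran from the 0.158 to the 78.7 percentile of the 633 single-gene probes. Of the 24, 8 were among the dimmest 169 eligible probes, 3 among the middle 168 and 13 among the brightest 169. At least 0.15 in both of numbers 1 and 2 was reached by 7 of the 8, 2 of the 3 and 7 of the 13 genes. Over all eligible probes at these levels the shares were 39.6%, 36.3% and 27.8%. For 12 of the 24, the SD of the 4 differences in numbers 3 to 6 was below the level SDs of both groups. The rule used these differences, and the same count over all eligible probes is not given here. The mean of numbers 1 and 2 was above that of numbers 3 to 6 for 12 of the 24.

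The same size rule turned round found 25 eligible probes lower in light in each of numbers 3 to 6. No probe was set aside from these 25, whereas 6 of the 30 higher in light were. Of the 24 genes, 21 were higher in light in both of numbers 1 and 2, against 7 of these 25. At least 0.15 was reached in both by 16 of the 24 genes, against 4 of the 25. The medians were 0.43 for the 24 genes and -0.03 for the 25 probes. Both sets were chosen on numbers 3 to 6, and the difference between them was not tested.

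**Figure D4:**
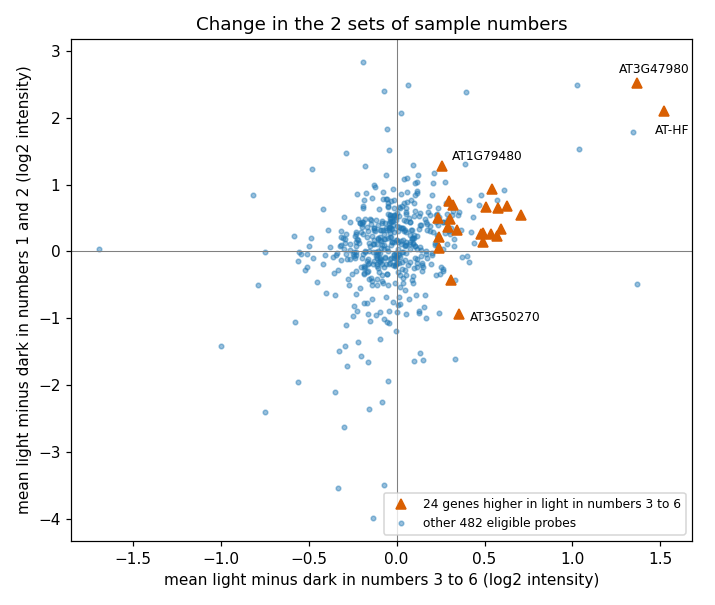
Mean light minus dark in numbers 3 to 6 (x axis) and in numbers 1 and 2 (y axis), both in log2 intensity, for the 24 genes (triangles) and the other 482 eligible probes (dots). The position of the triangles along the x axis follows from their choice, and 22 of the 24 lie above 0 on the y axis.

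Changes are relative to the other probes of the same samples. In deposited values the median of light minus dark over all tested probes was 2.66 and 2.65 in numbers 1 and 2, and between -0.14 and -0.13 in numbers 3 to 6. Without scaling, and with the probes set aside by number left out, 8 eligible probes met the size rule in numbers 3 to 6. All 8 were among the 24 genes.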

How the data were processed

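The deposited values, per the file's own numbers, are relative intensities on a linear scale, and none is below 0. No source used here says what the authors did before they deposited these intensities. The number of samples limits the precision. Gene names came from the platform annotation, and 690 of 692 single-gene probes were found in RefSeq's table of genes (assembly TAIR10.1). No coordinates are printed, because no source used here names the array's build, and promoter and protein sequences were not used here. The table holds no descriptive words for most genes: 21 of the 506 eligible probes and 0 of the 24 genes matched a word of the family lists, so these lists are not used further.

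The 3193 probes above 0 in all 12 samples were taken to log2 and quantile normalised. Light minus dark in numbers 1 and 2 was tested with limma 3.58.1, run under R 4.3.3 (a two-sided test by lmFit and eBayes, adjusted by Benjamini-Hochberg over 3193 probes), after the script was tested on simulated data. The genes and lists were chosen with earlier results of these data known. Genes given sample by sample were the 8 largest in numbers 3 to 6, the 5 highest and 5 lowest in numbers 1 and 2, those called, the 3 nearest the threshold, and the 2 brightest and 2 dimmest.

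Across probes, deviations from the group means correlated at 0.418 to 0.521 between the light and dark sample of each of the 6 numbers. Light and dark samples of unlike number were not compared, so pairing by number was not tested. Samples 1 and 2, 3 and 4, and 5 and 6 were also most alike within their group, in 6 of 6 light and 6 of 6 dark samples. Their correlations were 0.755, 0.493 and 0.323 in light, but only 0.190, 0.287 and 0.170 in the dark. Whether these samples are repeat measurements was not tested, and p-values of numbers 1 and 2 may be too small for this reason. Alternatives were other scalings, a filter on dim probes, a pseudocount, the sample number as a block, eBayes with trend and robust, other thresholds and leaving out samples.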

Additional observations from a re-analysis of the deposited data

Results flagged for a closer look

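Over the light values, the dark values and the differences of numbers 3 to 6, 72 sets of 4 values were examined for a sample far from the other 3, and 5 were found. For independent sets that were not selected, chance gives about 1 in 20. That rate need not hold here, because the rule chose the differences and they come from the same light and dark values. AT-HF was low in number 3 in both groups, at -4.92 in light (the others -1.95 to -1.77) and -8.48 in the dark (the others -2.87 to -2.52). AT1G73090 had a difference of 0.95 in number 4, against 0.44 to 0.47 in the other numbers. AT2G47830 had a difference of 0.35 in number 6, against 0.20 to 0.22. AT1G21730 had a difference of 0.47 in number 5, against 0.22 to 0.26.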

How the results depend on the processing

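In numbers 1 and 2 limma called 807 probes and 6 of the 24 genes. Without scaling these were 3053 and 24, the median of the 24 genes was 2.97, and AT3G56010 (2.23) and AT3G50270 (1.69) turned sign. Light 1 and 2 keep their higher deposited medians there. With the dimmest 25% of probes left out, 16 of the 24 genes were measured, 3 were called, 13 were higher in both numbers, 9 reached 0.15 in both and the median was 0.30. The eligible probes left had 50.3% higher in both, 36.0% at 0.15 or more in both and a median of 0.12. Of all 2395 probes left, 740 (30.9%) were called. Fewer genes measured lowers the counts of the 24 by construction. It does not by itself lower the median or the shares of the genes measured, and the cause of these falls was not tested. Trend and robust called 11 of the 24, 9 higher and 2 lower in light (AT3G50270 and AT3G56010), against 31.2% of all tested probes (15.8% higher and 15.3% lower). The median of the 24 genes was 0.37 with median centring and 0.38 with the pseudocount, against 0.43 in the main setting. Over all eligible probes it was 0.06 and 0.10, against 0.13, so the eligible median was lower there too. The cause was not tested. The replicate block called 710 probes and 6 of the 24 genes. Leaving out 1 of the 4 samples, which leaves 1 group with a lone sample assumed to vary like the other group, gave 0 to 353 probes, 0 to 3 of the 24 genes and medians of 0.34 to 0.43. AT5G11650 ranged from -0.48 without light 1 to 0.94 without light 2, with -0.35 without dark 2. AT1G21730 ranged from -0.052 without dark 1 to 1.63 without dark 2. The 0 called probes without light 1 or light 2 had 821 and 826 probes at an unadjusted limma p under 0.05. Number 1 or number 2 alone, chosen after seeing the data, gave 21 to 22 genes higher in light and 17 to 19 at 0.15 or more, where 57.9% to 59.7% of eligible probes were higher and 45.3% to 46.2% at 0.15 or more. With the probes set aside by number left out, the rule itself found 8 genes without scaling. It found 47 on the means of 3 and 4 and of 5 and 6, where less is required. Leaving out a number gave 29 to 36. The searches of promoter words could not be run, since no promoter table was used here.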

Other observations

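Across the 24 genes, the mean change in numbers 3 to 6 and that in numbers 1 and 2 had a Pearson correlation of 0.73 (n = 24) and a Spearman correlation of 0.33. Without AT-HF and AT3G47980, the 2 dimmest genes, both were 0.13 (n = 22). The genes share the same arrays and are not independent, so this is a description only.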
